A study of Mus musculus with 5 samples.

Results

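The genes described here encode proteins of the mitochondrial ribosome, and their RNA was measured in mouse embryonic stem (ES) cells with an inducible Satb1 transgene. They were chosen as probe sets whose single gene symbol in the array's annotation is Mrpl or Mrps followed by a number. Of 19938 genes with a singly named probe set, 77 met this rule, of which 48 were Mrpl genes, taken as the large subunit, and 29 were Mrps genes, taken as the small subunit. They came from 85 probe sets, and where a gene had several, the one brightest on average across the 5 arrays was used. RefSeq's gene table lists 78 coding genes with such symbols. The remaining one, Mrpl53, was not analysed here because its probe set also names Ccdc142.

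The mitochondrial ribosome consists of RNAs encoded by the mitochondrial genome and of proteins encoded in the nucleus, made in the cytosol and imported. It translates the messenger RNAs of the mitochondrial genome, which encode core subunits of the respiratory chain and of ATP synthase. The small subunit holds the decoding centre, where codons are read, and the large subunit holds the site where peptide bonds form and the tunnel through which the new chain leaves. Tetracyclines, among them doxycycline (DOX), bind the small subunit of bacterial ribosomes, and doxycycline is known to inhibit mitochondrial translation too. The comparison asks whether RNA levels of the large and small subunit genes differed between cells given doxycycline and cells without it. RNA alone was measured, and protein and translation were not.

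All 5 arrays came from ES cells that carry Satb1, a chromatin-binding protein, behind a tetracycline-responsive (tetO) promoter. The 3 +DOX arrays were from cells given doxycycline for 24 h, and the 2 no DOX arrays were from cells of the same kind without the drug. In both groups the RNA was taken 48 h after passaging, in medium with serum and leukaemia inhibitory factor (LIF), from cells grown on irradiated feeder cells that were reduced by letting the suspension settle. Every +DOX array also had high Satb1, and no array was of drug-treated cells without the transgene, so effects of doxycycline and of Satb1 cannot be told apart here. The labels do not say that the arrays came from separate cultures or lines, and p-values then measure only the spread between these arrays.

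Satb1 itself, the check on the labels, had log2 values of 8.61, 8.79 and 8.68 in +DOX cells and 4.95 and 5.34 in no DOX cells, an 11.7-fold difference. Its adjusted p was 0.229 in limma's fit over all genes and 0.00384 with the shared spread described below, so the plain test missed even this gene. All 12 ES cell markers on a fixed list were measured, and their mean was 8.80, 8.75 and 8.78 in +DOX cells and 8.805 and 8.84 in no DOX cells. Markers of feeder fibroblasts were measured for 19 of 20 genes. Their mean was 5.39 to 5.41 in +DOX cells and 5.36 to 5.37 in no DOX cells, and 13 of the 19 had the higher mean in +DOX cells, and 0 passed the test. The part of feeder RNA in the values below was not tested. Correlations between arrays over all genes were 0.997 to 0.998. Between any 2 arrays, 40.6 to 44.6% of genes had exactly the same deposited value, a feature that limits how finely small differences can be read.

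Promoters are shown for members that the results below turn on, namely Mrpl57 and Mrpl32, whose groups did not overlap, Mrps10 and Mrps21, at the ends of the small subunit's range, and Mrps11, whose window also holds the start of Mrpl46. Nuclear genes of mitochondrial proteins are known to be controlled by NRF1, by the ETS-family factor GABPA (NRF2) and by YY1. The windows are RefSeq's 300 bases, 250 before and 50 after the start, in build GRCm38.p6, and run 5′ to 3′ along the gene. Capitals mark matches on either strand to the cores GCGCNTGCG for NRF1, CCGGAAG for ETS factors and AAGATGGCG for YY1, and positions count from 0 at the start. The Mrpl57 window lies at chr14:57825989-57826288 on the plus strand, with an NRF1 match from -56 to -48 and an ETS match from 4 to 10. The Mrpl32 window lies at chr13:14612988-14613287 on the minus strand, with overlapping NRF1 matches on both strands from -87 to -78 and another from -23 to -15. Mrps10, at chr17:47368947-47369246 on the plus strand, had no match. Mrps21, at chr3:95871465-95871764 on the minus strand, had an NRF1 match from -91 to -83 and an ETS match from 18 to 24. Mrps11, at chr7:78782881-78783180 on the plus strand, had a YY1 match from -108 to -100.
Mrpl57: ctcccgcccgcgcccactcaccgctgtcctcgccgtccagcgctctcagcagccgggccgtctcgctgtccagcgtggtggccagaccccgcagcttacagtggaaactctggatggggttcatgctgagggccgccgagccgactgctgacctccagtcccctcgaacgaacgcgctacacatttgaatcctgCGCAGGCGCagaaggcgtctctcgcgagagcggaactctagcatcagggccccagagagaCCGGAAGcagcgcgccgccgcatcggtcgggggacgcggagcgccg
Mrpl32: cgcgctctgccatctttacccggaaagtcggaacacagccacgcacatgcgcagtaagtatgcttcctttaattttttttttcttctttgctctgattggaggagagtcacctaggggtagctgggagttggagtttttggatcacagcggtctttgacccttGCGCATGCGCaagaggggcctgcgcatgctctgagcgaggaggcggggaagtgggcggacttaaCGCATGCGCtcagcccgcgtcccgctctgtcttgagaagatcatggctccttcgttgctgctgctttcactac
Mrps10: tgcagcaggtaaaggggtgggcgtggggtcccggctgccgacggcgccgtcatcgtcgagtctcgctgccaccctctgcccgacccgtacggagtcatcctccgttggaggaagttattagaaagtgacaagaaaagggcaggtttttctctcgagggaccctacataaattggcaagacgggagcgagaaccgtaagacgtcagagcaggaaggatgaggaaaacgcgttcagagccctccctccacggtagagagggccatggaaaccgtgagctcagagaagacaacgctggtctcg
Mrps21: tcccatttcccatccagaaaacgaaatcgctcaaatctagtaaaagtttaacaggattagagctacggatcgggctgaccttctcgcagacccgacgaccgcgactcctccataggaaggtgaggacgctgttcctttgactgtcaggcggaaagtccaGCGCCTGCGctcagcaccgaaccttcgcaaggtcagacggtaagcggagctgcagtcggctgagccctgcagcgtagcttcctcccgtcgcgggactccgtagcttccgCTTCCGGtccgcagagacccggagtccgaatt
Mrps11: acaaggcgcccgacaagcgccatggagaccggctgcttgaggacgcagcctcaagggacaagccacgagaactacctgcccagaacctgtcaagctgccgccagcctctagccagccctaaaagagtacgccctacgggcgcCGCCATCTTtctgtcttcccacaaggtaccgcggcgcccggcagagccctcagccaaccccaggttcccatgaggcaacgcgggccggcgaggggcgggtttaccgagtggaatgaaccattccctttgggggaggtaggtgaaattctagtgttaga

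RefSeq's table held a promoter for 68 of the 77 members, 42 large and 26 small. Mrpl4, Mrpl13, Mrpl15, Mrpl19, Mrpl38, Mrpl54, Mrps28, Mrps34 and Mrps35 had none there. The ETS core was found in 36.8% of the 68 members, in 13.6% of 15563 measured genes and in 9.93% of all 27025 genes in the table. The NRF1 core was found in 26.5% of members, 10.6% of measured genes and 7.12% of all genes. For the YY1 core the shares were 11.8%, 2.29% and 1.64%, and the 8 members with it were Mrpl35, Mrpl36, Mrpl37, Mrpl42, Mrps11, Mrps18a, Mrps24 and Mrps27. At least 1 of the 3 cores was present in 61.8% of members, 23.3% of measured genes and 16.6% of all genes. Members and measured genes had median GC contents of 58.0% and 57.5%, with medians of 21 and 15 CpG dinucleotides per window. Within the members, the ETS core was in 42.3% of small and 33.3% of large subunit promoters, and the NRF1 core was in 19.2% of small and 31.0% of large subunit promoters. A match describes letters in a window and does not show that a factor binds.

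**Figure D1:**
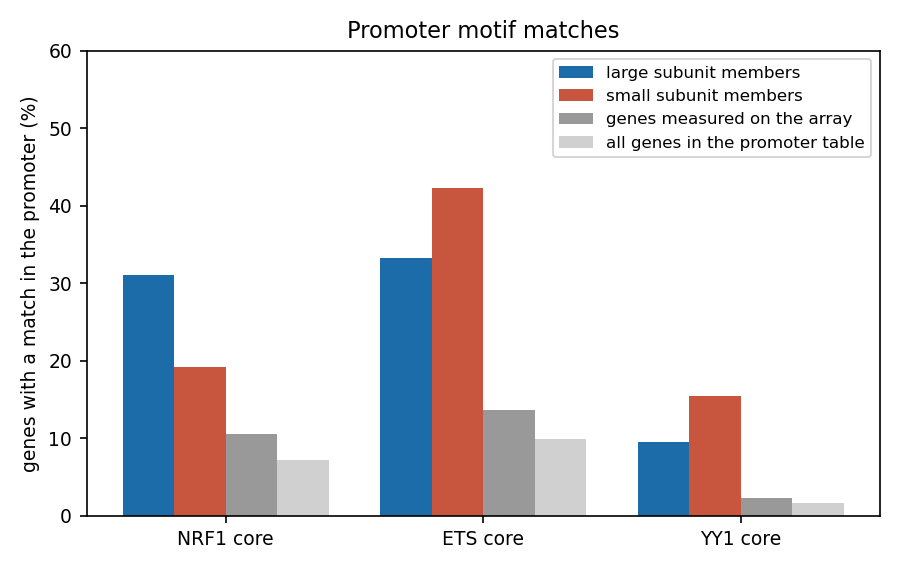
Percentage of genes (y axis) whose RefSeq promoter window holds the NRF1, ETS or YY1 core (x axis). Bars are for large subunit members (n = 42), small subunit members (n = 26), measured genes (n = 15563) and all genes in the promoter table (n = 27025). Bars of both subunits stand above those of measured genes for each core. Any of the cores was held by 61.8% of the 68 members against 23.3% of measured genes, a share not drawn here.

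Many members also share their start region with a gene on the other strand. A divergent start within 1000 bases was listed for 26 of the 68 members (38.2%), 14.4% of measured genes and 12.2% of all genes. These 26 members formed 25 pairs, and the one pair made of 2 members was Mrpl46 and Mrps11, with starts 42 bases apart. Mrpl43 faced Twnk, the mitochondrial DNA helicase, at 116 bases. Mrps12 faced Sars2, the mitochondrial seryl-tRNA synthetase, at 147 bases, and Mrpl57 faced Ska3, a kinetochore protein gene, at 76 bases. Of the partners that are not members, 22 were measured, 8 with a higher, 12 with a lower and 2 with the same mean in +DOX cells, from -0.13 to 0.11 on the log2 scale, and none passed the test.

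No mitochondrial ribosomal protein gene passed the test between +DOX and no DOX cells. Log2 values, on which 1 unit is a 2-fold difference, were compared with limma across all 19938 genes, with a threshold of 0.05 on the Benjamini-Hochberg adjusted p. Of the 77 members, 0 were higher and 0 lower, where 0.0100% of all genes were called higher and 0.00502% lower. The lowest adjusted p among members was 0.77. At an unadjusted p under 0.05, 0 members were higher and 0 lower, against 0.481% and 1.07% of all genes. In a setting here called the shared spread, limma's prior was taken from the 1800 genes with 5 distinct values and applied to every gene. With it 0 members were again higher and 0 lower, adjusted or at an unadjusted p under 0.05, where 0.301% of all genes were higher and 0.772% lower at the unadjusted threshold. Without no DOX array 1, limma called 3 members higher and 4 lower, and without no DOX array 2 it called 3 higher and 0 lower, with 4.43% to 5.5% of all genes called in each direction in those fits.

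The differences were small in size as well as short of the threshold. Changes of members, as the mean of +DOX minus the mean of no DOX arrays, ran from -0.15 for Mrpl57 to 0.11 for Mrpl52 on the log2 scale. That range is of the probe sets used, and an unused probe set of Mrpl41, described below, was at -0.22. The mean was higher in +DOX cells for 27 members, lower for 38 and the same for 12. Over all genes it was higher for 7901, lower for 9026 and the same for 3011. The median change over members was 0, as it was over all genes. In absolute size the median change was 0.023 for members and 0.031 for all genes, and 8 members (10.4%) differed by at least 0.1, against 14.2% of all genes. With the shared spread, the 95% interval of the change lay within a 1.41-fold difference in either direction for 77 of 77 members, and within 1.19-fold for 62. The widths rest in part on the prior taken from other genes. Each of the 12 members with the same value on all arrays had the interval -0.13 to 0.13, set by that prior alone. The lowest bound was that of Mrpl22, at 0.712-fold, and the highest was that of Mrpl46, at 1.29-fold. These bounds hold relative to the other genes, since the arrays were normalized to each other and a shift of all transcripts would not be seen.

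**Figure D2:**
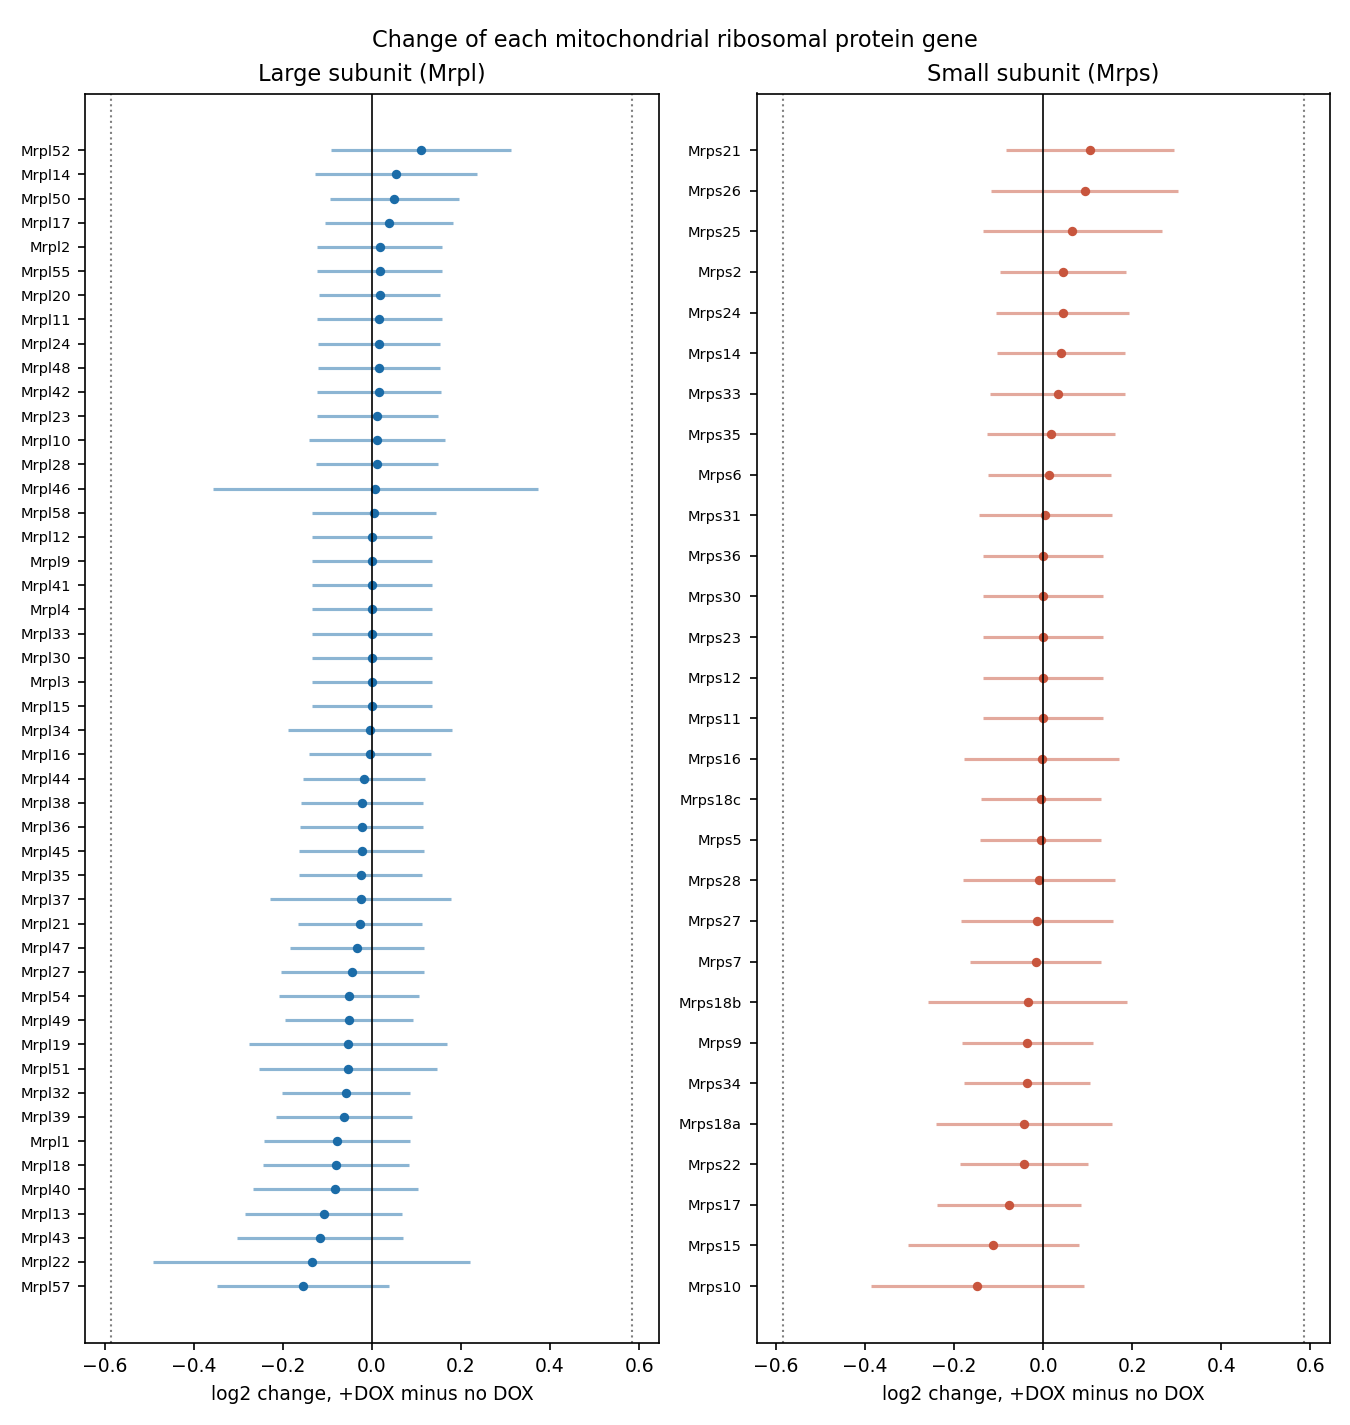
Log2 change of each of the 77 members (x axis, +DOX minus no DOX) with its 95% interval under the shared spread, members of each subunit ordered by change (y axis), with dotted lines at 1.5-fold in either direction. Points run from -0.15 to 0.11, and no interval reaches a dotted line.

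Groups that do not overlap were seen in 2 members, both of the large subunit and both lower in +DOX cells. That is 2.6% of members, against 3.08% of all genes with this pattern, and for the opposite pattern it was 0 members against 1.65% of all genes. Mrpl57, a small protein of the large subunit, had log2 values of 5.814, 5.717 and 5.649 in +DOX cells and 5.816 and 5.945 in no DOX cells. The closest arrays of the 2 groups were 0.0017 apart. The change was -0.15 (SE 0.073 from limma's plain fit, 95% interval -0.35 to 0.04 from the shared spread, as in the values below). Mrpl32, whose protein is cut by the m-AAA protease before it joins the ribosome, had values of 5.962, 5.896 and 5.898 in +DOX cells and 5.989 and 5.964 in no DOX cells. Its groups were 0.0018 apart, and its change was -0.06 (SE 0.028, interval -0.20 to 0.09). Mrpl32 was named after its values were seen. With an array left out, the count of such lower members was 8 (10.4%) without +DOX array 1, beside 5.34% of all genes, 7 (9.09%) without +DOX array 2, beside 4.73%, and 3 (3.9%) without +DOX array 3, beside 5.17%. It was 23 (29.9%) without no DOX array 1, beside 18.2% of all genes, and 7 (9.09%) without no DOX array 2, beside 14.9%.

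Among the other large subunit members with the lowest changes, the groups overlapped or shared a value. Mrpl22, which lines the exit tunnel, had 5.42, 5.91 and 5.71 in +DOX cells and 5.78 and 5.85 in no DOX cells (change -0.14, SE 0.17). Its +DOX arrays held both the lowest and the highest of the 5 values. Mrpl43 had 5.74, 5.73 and 5.68 in +DOX cells and 5.74 and 5.93 in no DOX cells (-0.12), so that no DOX array 2 set the difference. Mrpl13, a relative of bacterial ribosomal protein L13, had 5.960, 5.997 and 5.956 in +DOX cells and 6.162 and 5.997 in no DOX cells (-0.11), where no DOX array 1 stood above the rest. Mrpl40 had 7.77, 7.84 and 7.89 in +DOX cells and 7.84 and 7.99 in no DOX cells (-0.08), and the groups overlapped.

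The highest changes of the large subunit had the same character. Mrpl52 had 6.66, 6.64 and 6.66 in +DOX cells and 6.43 and 6.66 in no DOX cells (change 0.11, interval -0.09 to 0.31), so a single no DOX array was low, and without it the change was -0.0033. Mrpl14, which contacts the small subunit, had 5.43, 5.43 and 5.59 in +DOX cells and 5.43 on both no DOX arrays (0.05). Here 1 +DOX array stood apart and the other 4 were alike. Mrpl50 had 7.24, 7.20 and 7.28 in +DOX cells and 7.20 and 7.17 in no DOX cells (0.05). Mrpl17 had 6.75 on all +DOX arrays and 6.67 and 6.75 in no DOX cells (0.04). Mrpl2, a relative of bacterial L2 close to the peptidyl transferase centre, had 7.88, 7.93 and 7.88 in +DOX cells and 7.88 on both no DOX arrays (0.02).

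Large subunit members with known roles had changes near 0. Mrpl3, a relative of bacterial L3 near the site of peptide bond formation, had 6.46 on all 5 arrays. The stalk of the large subunit, which recruits translation factors, is built on Mrpl10 with Mrpl12 and lies beside Mrpl11. Mrpl10 had 7.78, 7.76 and 7.75 in +DOX cells and 7.70 and 7.81 in no DOX cells. Mrpl12, which also binds the mitochondrial RNA polymerase, had 6.72, 6.74 and 6.73 in +DOX cells and 6.73 on both no DOX arrays. Mrpl11 had 7.83, 7.88 and 7.83 in +DOX cells and 7.83 on both no DOX arrays. The changes of these stalk genes were 0.01, 0.00055 and 0.02, with overlapping groups for each.

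Other large subunit members with mitochondrial roles likewise had overlapping groups. Mrpl45, which anchors the exit site at the inner membrane, had 8.73, 8.67 and 8.71 in +DOX cells and 8.73 on both no DOX arrays. Mrpl44, which has a fold like that of RNase III, had 7.25 on all +DOX arrays and 7.25 and 7.29 in no DOX cells. Mrpl37, one of the proteins without a bacterial relative, had 7.17, 7.35 and 7.21 in +DOX cells and 7.21 and 7.33 in no DOX cells. Changes were -0.02 for Mrpl45, -0.02 for Mrpl44 and -0.03 for Mrpl37.

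In the small subunit no member's groups separated in either direction. Mrps10, a relative of bacterial S10, had the lowest change, with 6.09, 6.32 and 6.04 in +DOX cells and 6.33 and 6.27 in no DOX cells (-0.15, SE 0.10, interval -0.39 to 0.09). One +DOX array lay between the 2 no DOX arrays. Mrps15 had 8.19, 8.36 and 8.34 in +DOX cells and 8.36 and 8.46 in no DOX cells (-0.11). Mrps17 had 6.60, 6.64 and 6.64 in +DOX cells and 6.64 and 6.76 in no DOX cells (-0.08). Mrps22, without a bacterial relative, had 6.98, 6.94 and 6.98 in +DOX cells and 6.98 and 7.04 in no DOX cells (-0.04). In Mrps15, Mrps17 and Mrps22 alike, no DOX array 2 was the highest of the 5.

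At the other end of the small subunit, Mrps21 had 7.61, 7.61 and 7.75 in +DOX cells and 7.49 and 7.61 in no DOX cells (change 0.11, interval -0.08 to 0.29). Mrps26 had 7.09, 7.13 and 7.22 in +DOX cells and 6.95 and 7.16 in no DOX cells (0.09). Mrps25 had 6.40, 6.20 and 6.20 in +DOX cells and 6.20 on both no DOX arrays (0.07). In Mrps25 a single +DOX array was high, while in Mrps21 and Mrps26 no DOX array 1 was the lowest. Without that array the change of Mrps26 was -0.01. Mrps2, a relative of bacterial S2, had 6.93, 6.95 and 6.96 in +DOX cells and 6.87 and 6.93 in no DOX cells (0.05). Mrps24 had 6.62, 6.55 and 6.55 in +DOX cells and 6.51 and 6.55 in no DOX cells (0.04).

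**Figure D3:**
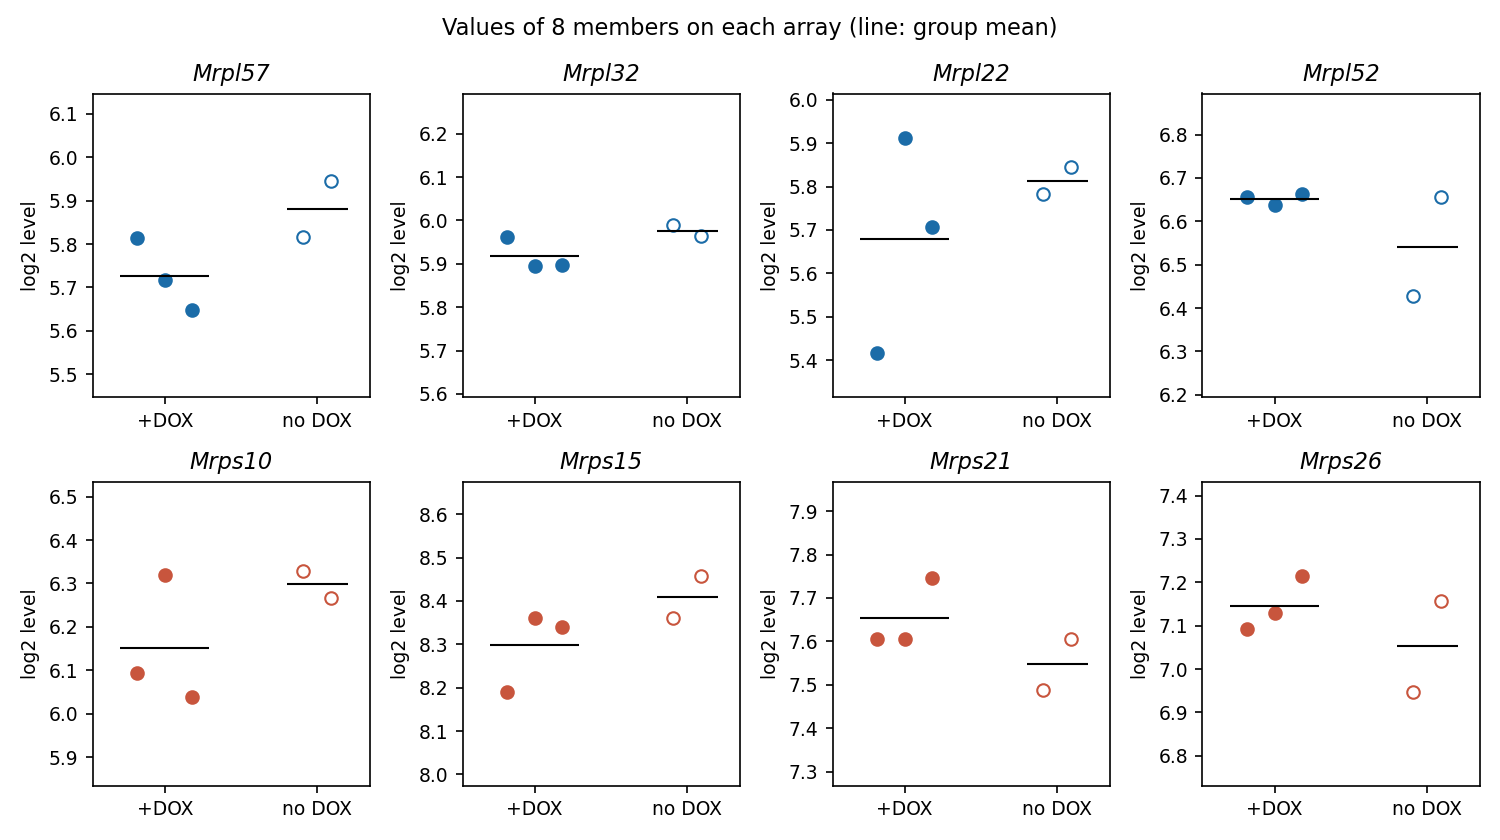
Deposited log2 value (y axis) on each array for Mrpl57, Mrpl32, Mrpl22, Mrpl52, Mrps10, Mrps15, Mrps21 and Mrps26, with +DOX arrays as filled points on the left and no DOX arrays as open points on the right of each panel. The groups overlap in each panel but those of Mrpl57 and Mrpl32, where the gaps are 0.0017 and 0.0018.

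The decoding centre and the other small subunit members with bacterial relatives came next, since tetracyclines bind the bacterial small subunit. Mrps12, a relative of bacterial S12 at the decoding centre, had 5.39 on all 5 arrays, and Mrps11 had 5.24 on all 5. Mrps5 had 7.19 on all +DOX arrays and 7.19 and 7.21 in no DOX cells. Mrps7, a relative of the bacterial head protein S7, had 7.27, 7.35 and 7.31 in +DOX cells and 7.31 and 7.34 in no DOX cells. The changes were 0, 0, -0.0057 and -0.02 in that order. Mrps14 had 6.951, 6.998 and 6.943 in +DOX cells and 6.901 and 6.947 in no DOX cells (0.04). Mrps16 had 7.06, 7.15 and 7.23 in +DOX cells and 7.15 on both no DOX arrays (-0.0030), with +DOX arrays on either side of no DOX. Mrps6 had 6.40, 6.40 and 6.45 in +DOX cells and 6.40 on both no DOX arrays (0.01).

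Mrps18a, Mrps18b and Mrps18c are 3 relatives of bacterial S18, and ribosome structures place Mrps18a in the large subunit. Mrps18a had 6.58, 6.78 and 6.67 in +DOX cells and 6.76 and 6.67 in no DOX cells (-0.04). Mrps18b had 8.37, 8.38 and 8.43 in +DOX cells and 8.29 and 8.56 in no DOX cells (-0.03). Mrps18c had 8.43 on all +DOX arrays and 8.43 and 8.44 in no DOX cells (-0.0054), so groups overlapped in all 3. Mrps27, a pentatricopeptide repeat protein, had 7.02, 6.97 and 6.87 in +DOX cells and 6.96 and 6.97 in no DOX cells (-0.01). Mrps34 had 6.64, 6.68 and 6.68 in +DOX cells and 6.68 and 6.72 in no DOX cells (-0.04). Mrps30, which structures also place in the large subunit, was at 6.79 on all 5 arrays.

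The large and small subunit genes were then set beside each other. The large subunit had 17 members with the higher and 24 with the lower mean in +DOX cells, and the small subunit had 10 and 14. The median change was -0.0022 in the large and 0 in the small subunit, and 0.014 and 0.013 after quantile normalization was applied again, which turned the sign of the first. With that repeated normalization the median was 0.013 over all members and -4.6e-05 over all genes. Over the 3899 genes untied within both groups, the median was -0.053 for 16 large and -0.014 for 11 small subunit members, beside -0.018 for all genes of that set. Over members with 5 distinct values it was -0.054 for 7 large and -0.0092 for 5 small subunit members. A median over all genes with 5 distinct values was not taken for comparison. Averaged over its 48 members, the large subunit stood at 6.93, 6.97 and 6.95 on the +DOX arrays and at 6.95 and 6.98 on the no DOX arrays, a difference of -0.02 with a within-group SD of 0.017. Averaged over its 29 members, the small subunit stood at 6.82, 6.83 and 6.82 on the +DOX arrays and at 6.81 and 6.85 on the no DOX arrays, a difference of -0.0041 with an SD of 0.014. The large minus small difference of these means was 0.11, 0.14 and 0.12 in +DOX cells and 0.14 and 0.13 in no DOX cells. Its shift of -0.015 stood beside an SD of 0.010, and the groups overlapped for all 3 quantities. No test was run on these means, since this gene list, though set by symbol alone, was chosen with earlier results of these data known.

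**Figure D4:**
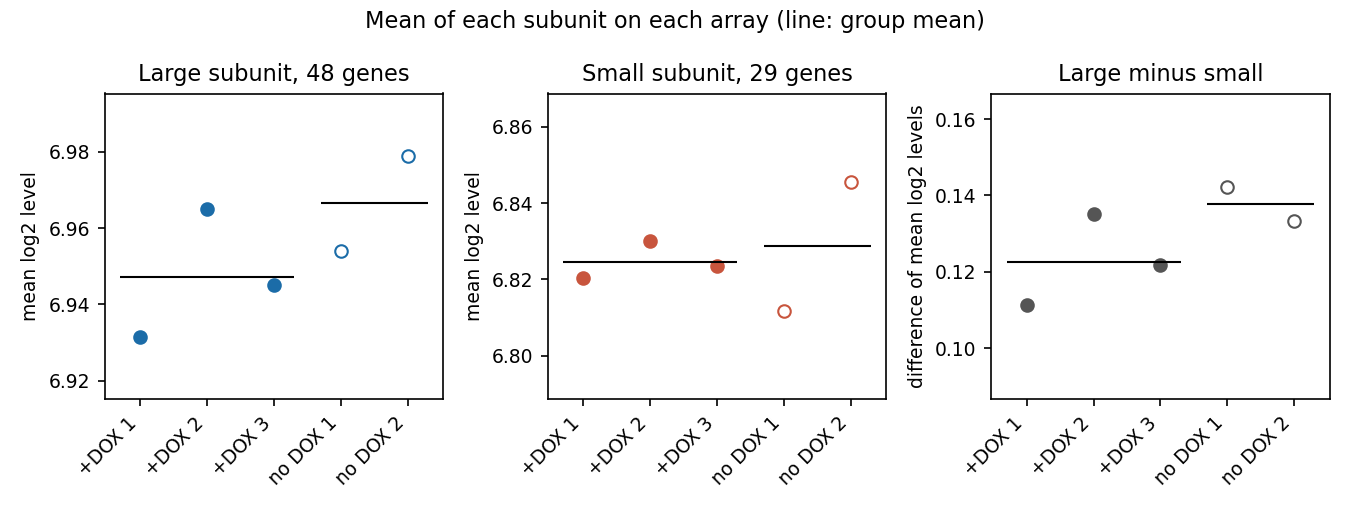
Mean deposited log2 value (y axis) of the 48 large and 29 small subunit members on each array, and their difference, with +DOX arrays as filled points to the left of the open no DOX points. The groups overlap in each panel, and no DOX array 2 holds the highest mean of both subunits.

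The distribution of changes gives the same comparison without averages. Changes under 0.05 in absolute log2 size made up 71.4% of members and 64.5% of all genes. At least 0.1 lower in +DOX cells were 6 members (7.79%), against 7.6% of all genes, and at least 0.1 higher were 2 members (2.6%), against 6.64% of all genes.

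**Figure D5:**
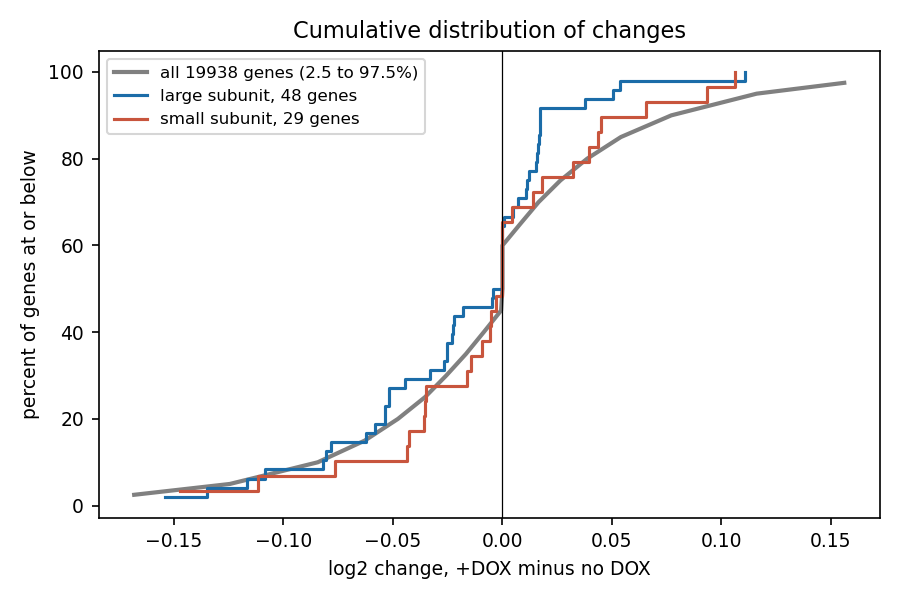
Cumulative percentage of genes (y axis) by log2 change (x axis, +DOX minus no DOX) for large subunit members, small subunit members and all 19938 genes. The median change is -0.0022 for the large subunit, 0 for the small subunit and 0 for all genes.

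The spread between single arrays was of the same order as the difference between groups. Of the 77 members, 65 varied over the 5 arrays. No DOX array 2 was the sole highest in 22 of these (33.8%), against 19.8% of all varying genes, and the sole lowest in 4. The array labelled +DOX 1 was the sole lowest in 18 (27.7%), against 15% of all varying genes. In the small subunit no DOX array 1 and +DOX array 1 were the sole lowest in 7 members each, and no DOX array 2 in none of the 24 that varied. The mean deviation of members from their own averages was 0.026 on no DOX array 2 and -0.020 on +DOX array 1. The mean change between groups over all members was -0.014.

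Exact ties on all 5 arrays were found in 12 members, which made 15.6% of the list, against 15.1% of all genes. They were Mrpl3, Mrpl4, Mrpl9, Mrpl15, Mrpl30, Mrpl33, Mrpl41, Mrps11, Mrps12, Mrps23, Mrps30 and Mrps36. At the other extreme, 12 members (15.6%) had 5 distinct values, against 9.03% of all genes. Mrps36 is known as a component of the 2-oxoglutarate dehydrogenase complex. RefSeq names 6 pseudogenes of Mrpl23, Mrpl27, Mrpl48 and Mrps36, so the values of these 4 members are uncertain where probes match a near-identical copy. Where the probes of the other members match was not checked.

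Of the 8 members with several probe sets, Mrpl41, a large subunit protein without a bacterial relative, gave the widest disagreement. Its used probe set had 6.30 on all 5 arrays. Its other probe set had 5.62, 5.65 and 5.48 in +DOX cells and 5.77 and 5.85 in no DOX cells, with no overlap and a change of -0.22 (SE 0.069, interval -0.41 to -0.04). That probe set did not pass either, with an adjusted p of 0.769 in limma's fit over 21789 singly named probe sets. Its unadjusted p in that fit was 0.038, while the lowest unadjusted p of members in limma's fit over genes was 0.113. This probe set was noticed after the data were seen, and which probe set reads Mrpl41 better was not tested. The probe sets of Mrps5 differed in sign, at -0.0057 for the one used and 0.028 for the other, which had 6.97, 7.11 and 6.92 in +DOX cells and 6.98 and 6.97 in no DOX cells.

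Genes that work with the mitochondrial ribosome were counted from fixed lists, and 0 passed the test in either direction in each list below. Of 5 measured proteins bound to the ribosome under other symbols, 5 had the lower mean in +DOX cells (median -0.05), among them Ptcd3 (-0.06) and Chchd1 (-0.09), both of the small subunit, and Oxa1l (-0.0075), the inner membrane insertase. Assembly and ribosomal RNA factors numbered 33 measured genes, with 11 higher, 21 lower and a median of -0.01. Their list held 39 symbols, some of them older names of genes also listed under the current one. Tfb2m, a mitochondrial transcription factor, had 6.30, 6.26 and 6.21 in +DOX cells and 6.33 and 6.41 in no DOX cells (-0.12), without overlap. Mrm3, a methyltransferase of mitochondrial ribosomal RNA, was the one gene of this list separated the other way, and was named after its values were seen. It had 6.451, 6.532 and 6.451 in +DOX cells and 6.436 and 6.430 in no DOX cells (0.05). Tfb2m and Mrm3 are each 3.03% of the list, beside 3.08% of all genes lower and 1.65% higher without overlap. Grsf1, an RNA-granule protein, had a change of -0.11, and Rbfa, a small subunit assembly factor, one of -0.04.

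Translation factors of mitochondria were measured for 17 genes, 3 higher and 13 lower, with a median of -0.02. Their list held 20 symbols, of which Pet112l is an older name of Gatb. Mtif2, which starts mitochondrial translation, had 7.49, 7.46 and 7.30 in +DOX cells and 7.59 and 7.63 in no DOX cells (-0.19, interval -0.39 to 0.0021). Its groups did not overlap, which is 5.88% of the list, beside 3.08% of all genes lower without overlap. Mrrf, the recycling factor, had a change of 0.08 and Guf1, a relative of bacterial LepA, of -0.02. Mitochondrial aminoacyl-tRNA synthetases were measured for 16 of 17 genes, 3 higher and 9 lower, with a median of -0.02. Their smallest p-values were those of Lars2 (-0.05), Wars2 (0.03) and Ears2 (-0.02).

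Products of the mitochondrial genome, which the ribosome translates, were represented by 2 probe sets, taken by their symbols. Where the probes of these sets match was not checked. ND3, a subunit of complex I, had 10.65, 10.47 and 10.71 in +DOX cells and 10.55 and 10.36 in no DOX cells (0.16). COX2, a subunit of complex IV, had 11.74, 11.65 and 11.78 in +DOX cells and 11.78 and 11.67 in no DOX cells (0.0024), and the groups overlapped in both. Stress and proteostasis genes of mitochondria were measured for 21 of 22, with 7 higher, 9 lower and a median of 0. Shmt2, the mitochondrial serine hydroxymethyltransferase, had 7.12, 7.04 and 7.10 in +DOX cells and 7.24 and 7.30 in no DOX cells (-0.19), without overlap. That is 4.76% of the list, beside 3.08% of all genes lower without overlap. Phgdh, of serine synthesis, had 6.59, 6.30 and 6.59 in +DOX cells and 5.93 and 6.35 in no DOX cells (0.35), with overlap. Clpp, the matrix protease, differed by 0.02.

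Proteins of the cytosolic ribosome, which translates the nuclear messenger RNAs, were counted for comparison. Of 59 measured, 33 had the higher and 24 the lower mean in +DOX cells, with a median of 0.0027 and a range of -0.21 to 0.12. Groups did not overlap in 3 higher genes, namely Rpl26 (0.08), Rps20 (0.0070) and Rpsa (0.05), which is 5.08% beside 1.65% of all genes. They also did not overlap in 2 lower genes, Rpl19 (-0.02) and Rpl38 (-0.09), which is 3.39% beside 3.08% of all genes. The lowest adjusted p in any of these lists was 0.77, the same as among the mitochondrial ribosomal protein genes.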

How the data were processed

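Biotin-labelled total RNA was measured on 5 arrays, 3 of +DOX and 2 of no DOX cells. The authors deposited log2 expression for 35557 probe sets after RMA (background correction, normalization between arrays, probe set summary), per the submitters' processing notes. Its version and the genome build were not given in the sources used here. Values spanned 0.789 to 13.1, as a log2 scale would. Of the probe sets, 21789 had 1 gene symbol, 1621 had several and 12147 were unnamed. No filter on low values was used, and levels are not compared between genes.

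All 19938 genes were fitted with limma 3.58.1 (lmFit and eBayes) in R 4.3.3. With 10 ways to split the arrays, a permutation test cannot go below 0.1 and was not used. Ties make limma's prior SD small, at 0.00495, against 0.0859 from the 1800 genes with 5 distinct values; intervals and the shared spread use the second. On simulated data made from these 19938 genes, limma's plain prior recovered 90 of 100 genes changed by 1 log2 unit and 31 of 100 changed by 0.5 without ties, with 4 false calls. With ties it recovered 70 and 51, with 102 false calls among 19738 unchanged genes. The shared spread recovered 95 and 64 with ties, with 11 false calls, and its 95% intervals covered 97.7% of true changes there. The simulated spreads were drawn from the prior behind the shared spread. Unchanged genes kept the real ties across groups, and changed genes kept those within each group. The recovery and the coverage were therefore partly built in, and the coverage is no check on the members' intervals. On the real arrays the plain fit called 2 genes higher and 1 lower, and it missed Satb1 at a change of 3.55. The simulated counts therefore do not carry over to the real arrays. Changes as small as those of the members were not simulated. The number of arrays limits the precision.

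The members, lists and settings were chosen with earlier results of these data known. Named genes were the 5 largest increases and decreases in each subunit, members with roles fixed by name, members whose probe sets differ in sign, and the 3 smallest p-values per list. Deviations of arrays with the same title number correlated at -0.0063 and 0.0063 over all genes, and at 0.148 and 0.028 over the 77 members. With 2 no DOX arrays, their deviations mirror each other, so these are not independent checks and cannot settle a pairing. The labels do not explain the numbers, and the main fit did not use them to pair arrays. Promoters came from RefSeq's table of GRCm38.p6, matched by gene ID, and were searched in Python 3.11.15.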

Additional observations from a re-analysis of the deposited data

How the results depend on the processing

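Called members numbered 0 in each direction except when a no DOX array was left out, where the lone control is assumed to vary like +DOX: the counts then ran from 0 to 3 higher and 0 to 4 lower over the 5 arrays. Without no DOX array 1, 3 members were called higher and 4 lower, beside 4.43% and 5.5% of all genes; without no DOX array 2, 3 were higher and 0 lower, beside 5.27% and 4.65%. Members whose groups did not overlap numbered 1 higher and 1 lower with centred arrays (1.3% each, beside 3.35% and 5.55% of all genes) and 12 higher after repeated quantile normalization (15.6%, beside 10.9%). Leaving out an array gave 1 to 12 higher (1.3 to 15.6%, beside 2.82 to 14.5% of all genes) and 3 to 23 lower (3.9 to 29.9%, beside 4.73 to 18.2%). The large subunit's median, -0.0022, was -0.053 over untied genes and -0.054 over members with 5 distinct values, and -0.0092 to 0 with an array left out. The large minus small median, also -0.0022, was -0.038 and -0.044 in those settings, -0.015 with means for medians, and -0.0092 to 0 with an array left out. The cause of these shifts was not tested. Among named genes, those called without no DOX array 2 were Mrpl17 (change 0.075) and Mrpl52 (0.22). Without no DOX array 1 they were Mrpl44 (-0.036) and Mrps5 (-0.011). The other called members are not named here. Mrpl17, Mrpl44 and Mrps5 had tied values on all +DOX arrays, which left no measured spread in those fits. With Mrps18a and Mrps30 moved to the large subunit and Mrps36 left out, chosen after seeing the data, the difference was -0.00074. The replicate block on the title numbers gave medians of 0 and 0 called members, and 0 of all genes.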

Other observations

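The deposited numbers recur between genes as well as between arrays. On each array, 62 to 64.5% of the 19938 gene values were different numbers, while the 77 members held 76 different numbers on each array. Mrpl4 and Mrpl9, both of the large subunit, had the identical value, 6.703502, on all 5 arrays. Mrps11 was at a number that 82 genes shared on no DOX array 1, and Mrpl33 at one that 42 genes shared.

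Changes were also read by promoter core. The median log2 change was -0.0171 for the 18 members with the NRF1 core and 0 for the 50 without it. For the ETS core the medians were -0.0045 in 25 members and 0 in 43, and for the YY1 core they were -0.0185 in 8 members and 0 in 60. These are descriptions, and no test was run on them.

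Of the 12 ES cell markers, 3 had the higher, 8 the lower and 1 the same mean in +DOX cells, with a median change of -0.0063. The highest change was that of Dppa5a (0.06). Klf4 (-0.35) and Tdgf1 (-0.21) had lower values on every +DOX array than on either no DOX array, and neither passed limma's test. These 2 are 16.7% of the list, beside 3.08% of all genes with this pattern. Among the 19 feeder fibroblast markers, with a median change of 0.015, the largest changes were those of Tagln (0.19) and Acta2 (0.18), whose groups overlapped.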
